A study of Mus musculus with 12 samples.

Results

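Oxa and APAP are the names given in the labels to a pair of drug treatments of 4T1, a cell line from a mouse mammary carcinoma that grows as an adherent epithelial culture. The comparison described here sets the 3 Oxa libraries directly against the 3 APAP libraries, 6 of the 12 libraries of the study, so that no control library enters it. All groups are wild-type 4T1 cells by their labels. The Oxa group received Oxa alone, the APAP group APAP alone, and the 2 remaining groups of 3 libraries received OAP2 or, as controls titled PBS, a treatment labelled DMSO. The labels used here state neither dose nor time, the drug names are not spelled out in the labels, and the series design text speaks of a xenograft derived from cells where the sample labels speak of a cell line. Nothing in the labels says that replicates were separate cultures, so the spread behind each p-value may be technical. The comparison asks how cells under the one agent differed from cells under the other, and it cannot say which agent moved a gene. For that reason PBS levels are set beside the genes on which the results turn; they come from columns named CON, and both their group and their numbers were matched to the PBS titles by inference.

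4T1 cells hold epithelial and mesenchymal traits together and are used as a model of mammary carcinoma that spreads. In such cells, genes for copying DNA are switched on as cells enter S phase, largely through E2F factors, while NF-kB drives chemokines and part of the machinery that presents peptides on MHC class I. The factor ATF4 raises genes for amino acid supply when translation is restrained, and YAP with its TEAD partners drives matrix and cytoskeletal genes in spread, tense cells. These programmes are the background to the gene groups described below. In bulk RNA, fewer cells of a kind and less RNA per cell cannot be told apart.

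Levels are FPKM, which are scaled to transcript length and library size, and are given for libraries 1, 2 and 3 of a group in that order. Differences are log2 fold changes of Oxa over APAP ± SE from edgeR, so that a positive value means a higher level in Oxa. Adjusted p-values are Benjamini-Hochberg values from edgeR's quasi-likelihood test over 11566 genes, and a gene counts as called where that value is below 0.05. Means are given as mean ± SD (n = 3 libraries per group).

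The 6 libraries were of like depth, with 64071751 to 66781224 estimated counts each, and mitochondrial transcripts took 3.45% to 3.85% of them in APAP and 3.60% to 4.29% in Oxa. Correlations of log2 expression were 0.986 to 0.991 within a group and 0.971 to 0.976 between the groups. On the first principal component of the 9 drug-treated libraries (36.4% of the variance) Oxa lay at 26.2 to 31.9 and APAP at -18.2 to -17.0. OAP2 3 stood apart on the second component at -38.7, against -3.2 to 8.6 for the other 8 libraries. It enters only the estimate of the spread, and all 3114 genes called with it were also called without it. The epithelial markers were abundant, with a mean log2(FPKM + 1) of 6.66 to 6.71 in APAP and 6.71 to 6.74 in Oxa. Their summed FPKM was 1029.2 to 1056.34 in APAP and 1118.94 to 1159.02 in Oxa. Red blood cell and neutrophil markers had a mean of at most 0.054 in each of the 6 libraries, with 3 to 5 of 7 and 7 to 9 of 9 markers at 0. Of the 10 macrophage markers, 1 to 4 were at 0, and their summed FPKM ranged from 15.6 to 20.3 in APAP and from 15.7 to 19.8 in Oxa. The summed fibroblast markers were 1.07 to 1.30 in APAP and 1.31 to 1.79 in Oxa. Lists for T and NK cells, B and plasma cells, dendritic cells, endothelium, fat, muscle and keratinocytes summed to at most 1.81. The control library PBS 2 did hold red blood cell and neutrophil transcripts (summed FPKM 231.89 and 67.13), so PBS levels are given library by library. They enter no test below other than the fit of all 12 libraries and the same fit without PBS 2.

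Oxa and APAP libraries differed in 3114 of 11566 genes tested (26.9%), 1643 higher in Oxa (14.2%) and 1471 lower in Oxa (12.7%). Most differences were small. Those called and over 2-fold numbered 328 (2.84%), with 183 higher in Oxa (1.58%) and 145 lower (1.25%). The FPKM ranges of the groups did not overlap for 5613 genes (48.5%). A lack of overlap named below is to be read against that share. Genes named for their change, p or level were taken only from these genes, so their separation follows from that choice. The median over all genes tested was -0.0041, so the counts of each gene group below are to be read against a background of about no shift and of 14.2% and 12.7% called. Leaving out each of the 6 libraries in turn left 2153 to 2373 genes called. The calls lower in Oxa then numbered 960 without Oxa 2 and 967 without Oxa 3. A fit with all 12 libraries, PBS included, called 1883, and the same fit without PBS 2 called 3310, of which 3074 were among the 3114. Of the genes described below, the fit of all 12 libraries lost the calls of Brms1, Rrm2, Tyms, Gins2, H1f2, Cxcl1, Il1a, Tslp, Oasl1, Krt14, Ddit4, Chac1, Sesn2, Herpud1, Osgin1, Tfrc, Junb, Phlda1, Ddx18, Scd2, Fdps, Ptgs2 and Phc3. Tubgcp6, named for its overlap with Selenoo, lost its call there too. Without PBS 2 all of these but Phc3 were called.

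**Figure D1:**
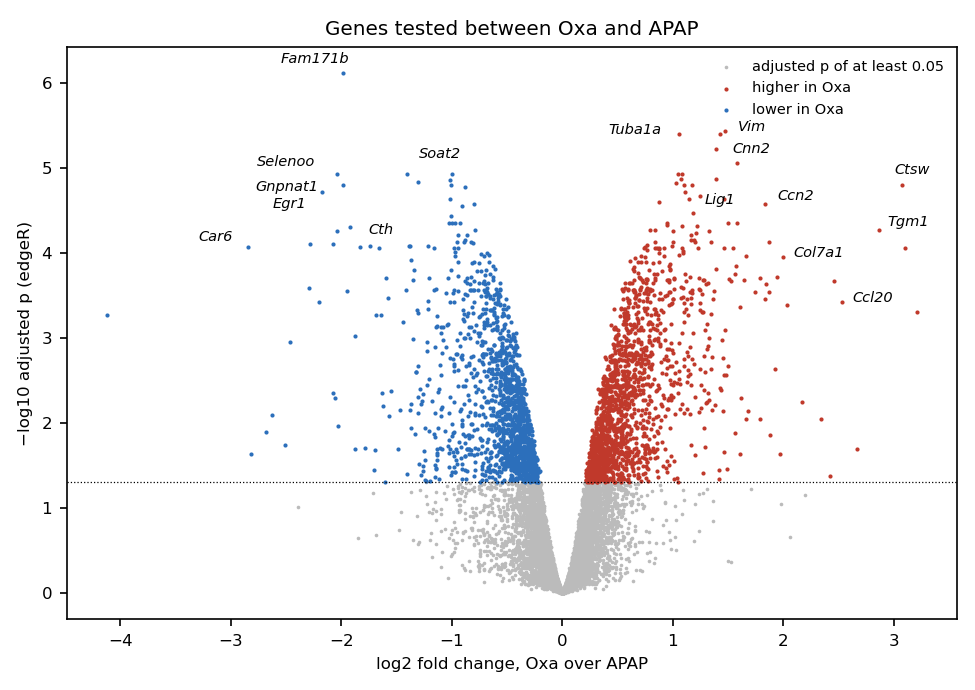
Each point is 1 of 11566 genes, with the log2 fold change of Oxa over APAP on the x axis and -log10 of the adjusted p from edgeR on the y axis; the dotted line is the threshold of 0.05. The 1643 genes higher in Oxa (red) and the 1471 lower (blue) spread to about the same width on both sides.

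Ctsw, Tgm1, Ccl20 and Ptgr1 had the largest rises among the named genes, from 5.5-fold to 8.43-fold, while the cytoskeletal genes Vim, Tuba1a and Cnn2 had the smallest p-values among the rises. Ctsw encodes cathepsin W, a protease known from cytotoxic lymphocytes, and maps to chr19:5465043-5468501 (GRCm38, as are all positions here). Its FPKM was 0.70, 1.25 and 0.98 in APAP and 9.84, 7.47 and 8.37 in Oxa, a difference of 3.07 ± 0.25 (adjusted p = 1.58e-05). Every Oxa library lay above every APAP library, as the rule for naming required, and the PBS libraries lay between them at 2.01, 5.35 and 2.05. Markers of T and NK cells were at or near 0 in the same libraries (summed FPKM at most 0.03, for the 3 of 9 found in the table). Ctsw overlaps the end of Fibp on the opposite strand, and Fibp differed by only 0.41 (adjusted p = 0.0338, lost as a call without APAP 1, APAP 2, Oxa 1 or Oxa 3).

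Tgm1, the transglutaminase that crosslinks the cornified envelope of skin (chr14:55700009-55713492), stood at 0.30, 0.43 and 0.72 in APAP and 3.66, 3.31 and 3.81 in Oxa (2.86 ± 0.28, adjusted p = 5.44e-05). Its PBS levels of 1.01, 1.42 and 0.76 were nearer to APAP. Ptgr1, a reductase that inactivates prostaglandins and leukotriene B4, was at 0.35, 0.51 and 0.24 in APAP and at 2.43, 1.75 and 2.14 in Oxa (2.46 ± 0.31, adjusted p = 0.000214). Both were low in APAP in each library, so their ratios rest on few reads on that side. Of the other large rises, Haus5 (2.03), a subunit of the augmin complex that branches spindle microtubules, Il18rap (1.84), a chain of the interleukin 18 receptor, and the myelin protein gene Pmp22 (1.74) were also low in APAP, with mean FPKM of 1.29, 0.653 and 1.00. Brms1 (2.16 ± 0.48, adjusted p = 0.00567) was uneven in Oxa, at 7.82, 2.08 and 8.13. Brms1 and Haus5 each overlap another tested gene on their own strand, so their counts are less certain.

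The matrix gene Col7a1 combined a large change with a high level. It encodes collagen VII, which forms the anchoring fibrils beneath epithelia, and maps to chr9:108953586-108984875. FPKM was 14.18, 12.74 and 15.16 in APAP and 70.69, 47.02 and 54.98 in Oxa (2.00 ± 0.23, adjusted p = 0.000112), and Oxa also stood above PBS at 18.09, 30.68 and 22.07. Ltbp2, a matrix protein related to those that bind latent TGF-beta, rose by a like factor (1.87 ± 0.25, adjusted p = 0.000291), from 3.94, 3.58 and 3.41 to 14.75, 14.05 and 12.33. The gelatinase gene Mmp9 was at 1.74, 2.24 and 1.69 in APAP and at 7.2, 7.63 and 6.51 in Oxa (1.87 ± 0.19, adjusted p = 7.45e-05). In each of these matrix genes the lowest Oxa library lay above the highest APAP library, as the rule for naming required.

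Vim, the intermediate filament gene of mesenchymal cells (chr2:13573927-13582826), had the smallest adjusted p of the named genes higher in Oxa. FPKM was 41.14, 39.82 and 37.48 in APAP and 112.6, 114.5 and 110.9 in Oxa, means of 39.5 ± 1.85 and 112.6 ± 1.82 (1.47 ± 0.09, adjusted p = 3.72e-06). The groups differed 2.78-fold and their libraries lay close together. PBS libraries stood at 50.2, 72.91 and 44.73. The tubulin gene Tuba1a (1.05 ± 0.07), the actin-binding calponin Cnn2 (1.43 ± 0.09), Fblim1 (1.39 ± 0.09), which links filamin to adhesion sites, and the LIM protein gene Crip1 (1.39 ± 0.11) had adjusted p from 4.07e-06 to 1.35e-05. Like Vim they were named for their small p, a choice that favours tight replicates. Actb, the cytoplasmic actin, went from 203.3, 197.7 and 197.9 to 288.7, 320.7 and 259.0 (0.50 ± 0.10, adjusted p = 0.00383). The membrane protein gene Tmem176a (1.58) and its overlapping neighbour Tmem176b (1.00) rose together, and their reads may not be fully told apart. Rdh10, which oxidises retinol on the way to retinoic acid, rose from 7.24 ± 0.35 to 15.4 ± 0.255 (1.05 ± 0.08), and Acsbg1, an acyl-CoA synthetase, from 9.89 ± 0.601 to 21.5 ± 0.612 (1.08 ± 0.08), both at adjusted p = 1.2e-05.

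Car6, a secreted carbonic anhydrase (chr4:150187015-150201332), had the largest fall among the genes described here. It was at 3.68, 3.38 and 2.99 in APAP and 0.43, 0.71 and 0.30 in Oxa (-2.84 ± 0.30, adjusted p = 8.53e-05). Fam171b, which encodes a membrane protein (chr2:83812636-83883486), had the smallest p of all genes named: 8.95, 8.98 and 8.13 in APAP and 2.18, 2.01 and 2.57 in Oxa (-1.99 ± 0.10, adjusted p = 7.72e-07). In both genes the lowest APAP library lay above the highest Oxa library, as the rule for naming required. In PBS, Fam171b was at 5.61, 1.86 and 6.55, with PBS 2 at the level of Oxa.

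Gnpnat1, the acetyltransferase of the hexosamine pathway that makes UDP-GlcNAc (chr14:45376334-45388961), fell from 23.28, 23.77 and 16.58 to 4.61, 5.93 and 6.02 (-1.98 ± 0.16, adjusted p = 1.61e-05). It overlaps Styx on the opposite strand, which moved by only 0.15. Of the other tested members of that pathway Nans (0.46) was higher, the O-GlcNAc hydrolase Oga (-0.35) was lower, and in all 2 of 11 were higher and 3 lower; 1 was higher without APAP 2, APAP 3 or any 1 Oxa library. The mitochondrial folate enzyme gene Aldh1l2 was at 3.18, 3.97 and 3.18 in APAP and 0.96, 0.97 and 1.44 in Oxa (-1.66 ± 0.18, adjusted p = 8.68e-05). Soat2, which esterifies cholesterol (chr15:102150526-102163469), was at 37.46, 36.29 and 40.43 in APAP and 14.66, 15.35 and 14.12 in Oxa (-1.41 ± 0.10, adjusted p = 1.2e-05). PBS 1 and PBS 3, at 42.49 and 43.58, were like APAP for Soat2, and PBS 2, at 18.32, was nearer to Oxa. The selenoprotein gene Selenoo (-2.04 ± 0.15), the ATP-gated channel gene P2rx3 (-2.04 ± 0.20), the G protein subunit gene Gng3 (-1.64 ± 0.24), the collagen gene Col11a2 (-1.44 ± 0.22) and the cytochrome oxidase subunit gene Cox6a2 (-1.63 ± 0.37) had mean FPKM of 2.86 to 3.67 in APAP and about 1 in Oxa. On the opposite strand Selenoo overlaps Tubgcp6, which was also lower (-0.41, adjusted p = 0.00638). P2rx3 overlaps Ssrp1 and Gng3 overlaps Bscl2 in the same way, so their counts are less certain.

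Falls of about 2-fold with tight replicates were seen for Fubp1 (-1.01 ± 0.08), whose protein binds upstream of Myc, the F-box gene Fbxw4 (-1.0 ± 0.07), Ascc2 (-1.01 ± 0.08) and the long noncoding RNA Mirt1 (-1.31 ± 0.10). They were named for their small p, a choice that favours tight replicates. For Ascc2 the FPKM was 54.95, 51.71 and 53.12 in APAP and 27.17, 27.41 and 26.78 in Oxa. The microRNA precursor genes Mir6942 and Mir1668 and the polycomb gene Phc3 also met the rule for naming, but their calls were lost without 1 of the 6 libraries. Phc3 rests on APAP 2 (4.51, against 1.23 and 1.19 in APAP 1 and APAP 3) and stood at -0.66 without it.

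**Figure D2:**
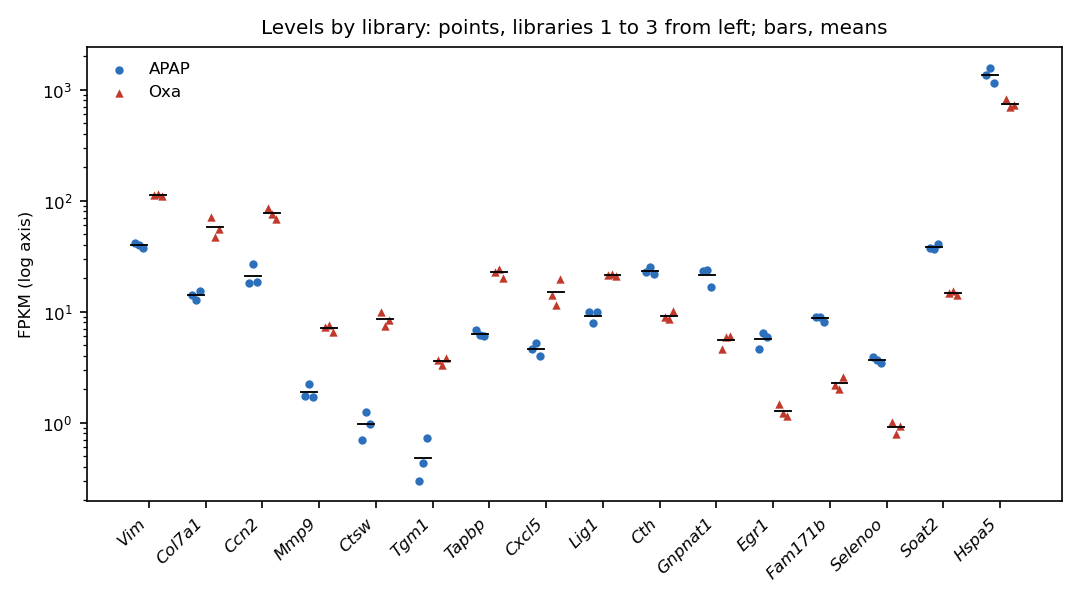
FPKM on a log axis for 16 genes in the 3 APAP libraries (blue circles) and the 3 Oxa libraries (red triangles); short bars are group means. For each gene shown the 3 points of one group lie wholly above those of the other, as for 48.5% of all genes tested. Most of the genes shown were named by a rule that takes only such genes. Levels run from Ctsw and Tgm1 near or below 1 in APAP to Hspa5 at 1148 to 1574 in APAP and 699.8 to 814.5 in Oxa.

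Genes that copy DNA were higher in Oxa. Of 53 tested genes of DNA replication and of the step from G1 into S phase, 31 were called higher and 0 lower, against 14.2% and 12.7% of all genes; 49 had a positive value, and the median was 0.38. Without any 1 of the 6 libraries 29 or 30 were still called, 24 in a fit of all 12 libraries and 31 in that fit without PBS 2. The changes were moderate, from 0.35 for Pola1, the catalytic subunit of the primase polymerase, to 1.17 for the ligase Lig1.

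Promoter stretches of 3 of these genes are shown because they hold letters that E2F factors are known to bind. They come from RefSeq (GRCm38), run 5′ to 3′ on the strand of the gene and lie within 250 bases before the start; capitals mark the match. Rfc3 is at chr5:151651209-151651268, Mcm7 at chr5:138171991-138172098 (both on the minus strand) and Cdc6 at chr11:98907963-98908070 (plus strand).
Rfc3: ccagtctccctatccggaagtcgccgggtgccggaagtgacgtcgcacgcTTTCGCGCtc
Mcm7: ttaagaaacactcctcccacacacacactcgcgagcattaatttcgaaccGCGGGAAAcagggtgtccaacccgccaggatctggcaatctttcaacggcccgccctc
Cdc6: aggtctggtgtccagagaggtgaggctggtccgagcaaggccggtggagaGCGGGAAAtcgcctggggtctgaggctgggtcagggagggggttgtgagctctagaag
Any of the letters TTTCGCGC, TTTGGCGC or TTTCCCGC, on either strand, occurred in 13 of the 43 replication genes with a promoter entry, against 320 of 8181 tested genes (3.91%). The share was 8 of 26 among the members higher in Oxa and 5 of 17 among those not called, so within the list the letters did not mark the members that differed. CCAAT boxes (CCAATNA or CCAATNG, either strand) were in 19 of the 43 and in 30.5% of all promoters. A match is a description of the sequence and not evidence that a factor was bound.

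Lig1, the ligase that seals the lagging strand (chr7:13277283-13311433), was at 9.91, 7.89 and 9.81 in APAP and at 21.16, 21.62 and 21.09 in Oxa (1.17 ± 0.09, adjusted p = 1.61e-05). PBS 1 and PBS 3, at 9.96 and 9.68, matched APAP, and PBS 2 stood at 19.97. Rfc3, a subunit of the loader that places the sliding clamp, went from 4.30, 3.55 and 4.07 to 9.0, 8.38 and 8.54 (1.08 ± 0.10, adjusted p = 4.83e-05). The origin licensing factor Cdc6 went from 1.84, 2.01 and 2.39 to 4.32, 4.36 and 3.81 (0.96 ± 0.13, adjusted p = 0.000293). In each of these genes all Oxa libraries lay above all APAP libraries. A lack of overlap in either direction held for 48.5% of all genes tested.

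The subunits of the replicative helicase rose to a like degree: Mcm2 from 14.6 ± 1.42 to 25.3 ± 0.859 (0.75 ± 0.09), Mcm4 by 0.68 and Mcm7 from 21.1 ± 1.62 to 36.1 ± 0.96 (0.74 ± 0.08). Cdc45, which joins that helicase, was at 0.70. Rpa1, which coats single-stranded DNA, went from 15.35, 16.31 and 15.52 to 27.06, 31.03 and 28.7 (0.84 ± 0.08, adjusted p = 5.44e-05). Among polymerase subunits Pold1 (0.74) and Pole (0.68) passed the test. Tyms, which makes thymidylate (0.62), Rrm2, a subunit of ribonucleotide reductase (0.37), and the cyclins Ccne2 (0.55) and Ccnd1 (0.49) were higher as well. Mcm7 shares its position with Cops6 and Ap4m1 on the opposite strand, and no source used here says whether counting used the strand.

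**Figure D3:**
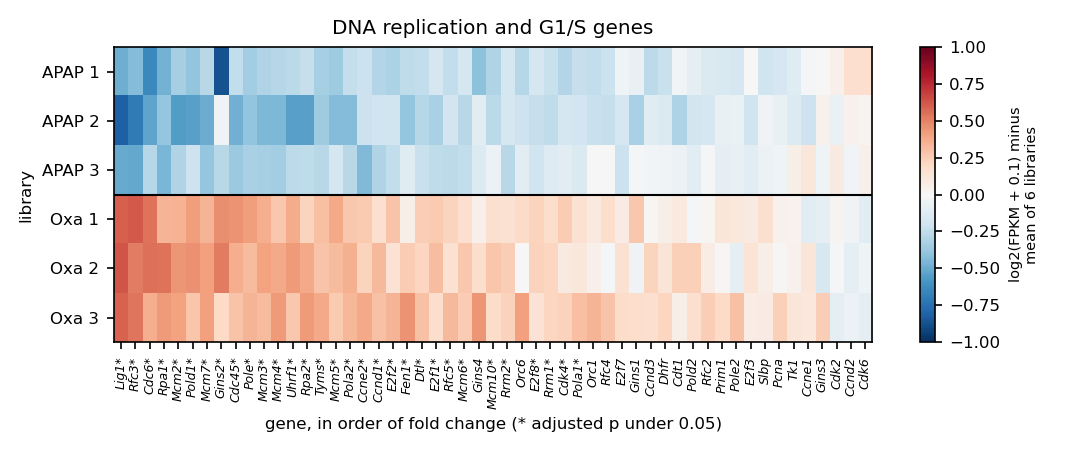
Heat map of the 53 replication and G1/S genes, in order of fold change, over the 6 libraries; colour is log2(FPKM + 0.1) minus the mean of the 6 libraries of that gene. Nearly all genes are below their mean (blue) in the 3 APAP libraries and above it (red) in the 3 Oxa libraries, and Gins2, whose call was lost without Oxa 2, differs among the APAP libraries.

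DNA repair genes leaned the same way. Of 50 tested genes of crosslink, excision and recombination repair, 18 were higher and 5 lower (median 0.17); the 5 became 3 without APAP 2, Oxa 2 or Oxa 3. Brca1, central to recombination, went from 3.75, 3.52 and 3.68 to 7.00, 6.34 and 6.79 (0.84 ± 0.09, adjusted p = 7.4e-05). The helicase gene Brip1 (0.84 ± 0.10) and the nuclease Exo1 (0.70 ± 0.09) followed. Ercc1, part of the nuclease that cuts beside crosslinks and bulky adducts, was lower in Oxa: 17.37, 15.99 and 15.25 in APAP against 11.86, 12.2 and 10.76 (-0.52 ± 0.09, adjusted p = 0.00145). The named repair genes did not overlap between the groups, as was so for 48.5% of all genes tested.

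Mitotic genes showed no such lean. Of 53 mitosis and spindle genes 9 were higher and 5 lower (median 0.07), and 3 were lower without APAP 1 or APAP 3. The transcription factors Mybl2 (0.63 ± 0.08) and Foxm1 (0.55 ± 0.07), the spindle protein Dlgap5 (0.60 ± 0.08) and the phosphatase Cdc25b (0.59 ± 0.09) were higher. The mitotic kinesin Kif14 (-0.49 ± 0.07, adjusted p = 0.000558) and the centromeric histone Cenpa (-0.49 ± 0.11, adjusted p = 0.00579) were lower. CCAAT boxes, common in promoters of mitotic genes, were in 29 of 44, against 30.5% of all. Of 10 histone genes 1 was higher and 3 lower, and 0 were higher without APAP 3, Oxa 2 or Oxa 3. H2bc21 fell from 2.66, 2.74 and 2.79 to 1.45, 1.39 and 1.49 (-0.96 ± 0.17), H2aw by 0.72 and H1f2 by 0.56 on the log2 scale. Most histone mRNAs carry no poly(A) tail and are poorly captured in libraries of this kind. The median of the histone list was -0.11, and 0.07 without APAP 2.

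Genes for antigen presentation by MHC class I were higher in Oxa. Of 21 tested, 13 were higher and 1 lower, with the highest median of the 42 lists (0.53). The count higher ranged from 9 to 12 without 1 library. Tapbp encodes tapasin, which loads peptides onto class I molecules (chr17:33915899-33926197), and was at 6.80, 6.20 and 5.98 in APAP and 22.85, 24.41 and 20.25 in Oxa (1.79 ± 0.22, adjusted p = 0.000198). Its PBS levels of 6.57, 11.42 and 5.45 were near APAP, and those of OAP2 were 14.04, 13.13 and 6.34. Tapbp overlaps Zbtb22 on the same stretch, and Zbtb22 did not pass the test (-0.08, adjusted p = 0.647). Psme1, a subunit of the proteasome activator, went from 8.29, 7.87 and 7.49 to 16.06, 18.66 and 22.04 (1.22 ± 0.12, adjusted p = 4.83e-05).

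The immunoproteasome subunits Psmb8 (0.69 ± 0.144 to 1.63 ± 0.165; 1.19 ± 0.22) and Psmb10 (5.69 ± 0.217 to 10.9 ± 0.33; 0.90 ± 0.11) and the peptide transporter Tap2 (0.93 ± 0.22) rose as well. The light chain B2m was abundant and changed less, from 162.0, 191.0 and 174.4 to 235.9, 247.2 and 272.6 (0.48 ± 0.10, adjusted p = 0.00521). The 1 member lower in Oxa was Nlrc5, the factor known to activate class I genes, at 1.96, 1.75 and 1.73 in APAP and 0.91, 0.68 and 0.79 in Oxa (-1.23 ± 0.21, adjusted p = 0.00142). Its groups did not overlap, as for 48.5% of all genes tested. Genes of the H2 family resemble one another, and their counts are less certain. The constitutive proteasome showed no like change: of 33 subunits 1 was higher and 1 lower, and 0 were higher whichever library was left out.

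Chemokines and NF-kB targets were higher in Oxa in 13 of 25 tested genes and lower in 1 (median 0.40). The count higher was 8 without APAP 3 7 in a fit of all 12 libraries and 13 in that fit without PBS 2. Promoter stretches of a group of these genes and of B2m are given because they hold NF-kB letters, in capitals, read as above from RefSeq (GRCm38, plus strand): Cxcl1 at chr5:90891124-90891233, Ccl20 at chr1:83116636-83116745, Nfkb2 at chr19:46304648-46304736 and, before a second start, chr19:46305680-46305764, and B2m at chr2:122147511-122147620.
Cxcl1: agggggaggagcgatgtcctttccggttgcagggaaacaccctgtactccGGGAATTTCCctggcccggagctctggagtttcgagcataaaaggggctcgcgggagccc
Ccl20: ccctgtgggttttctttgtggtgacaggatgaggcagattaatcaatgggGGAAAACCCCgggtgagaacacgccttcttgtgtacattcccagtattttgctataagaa
Nfkb2: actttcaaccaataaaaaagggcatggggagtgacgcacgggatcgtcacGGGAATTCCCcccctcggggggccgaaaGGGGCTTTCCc
Nfkb2, second start: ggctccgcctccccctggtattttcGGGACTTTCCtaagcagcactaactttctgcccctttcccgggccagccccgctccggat
B2m: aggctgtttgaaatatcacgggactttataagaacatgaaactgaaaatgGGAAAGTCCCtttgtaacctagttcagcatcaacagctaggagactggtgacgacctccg
The NF-kB motif, searched on both strands, was found in 8 of 16 members of this list with a promoter entry. It was in 6 of 8 members higher in Oxa, in 2 of 8 not called and in 179 of 8181 promoters overall (2.19%). The list was chosen to hold NF-kB targets, so its excess over all promoters follows from that choice. The shares within the list rest on few genes, and their difference was not tested. In the class I list the motif was in 6 of 18, with 3 of 12 among the members higher in Oxa and 3 of 6 among those not called. An E2F match of TTTCCCGC can share bases with this motif.

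Ccl20, which attracts cells that carry CCR6 (chr1:83116766-83119167), was at 0.41, 0.34 and 0.38 in APAP and 3.19, 1.64 and 2.01 in Oxa (2.53 ± 0.35, adjusted p = 0.000378). The neutrophil chemokine Cxcl5 was at 4.63, 5.22 and 4.00 in APAP and 14.16, 11.55 and 19.59 in Oxa (1.66 ± 0.19, adjusted p = 0.000109). PBS held Cxcl5 at 13.02, 37.37 and 10.21, so the APAP libraries lay below both Oxa and PBS. The same order held for Cxcl1, at 2.23, 3.77 and 3.38 in APAP, 8.02, 4.85 and 8.23 in Oxa and 7.90, 39.52 and 5.81 in PBS (1.13 ± 0.26, adjusted p = 0.00692). The highest PBS value for both chemokines came from PBS 2, the library with neutrophil transcripts. Cxcl3 (1.32 ± 0.28) and Il1a (1.15 ± 0.14), which encodes interleukin 1 alpha, were higher too.

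Nfkb2 and Nfkbie, members of this list that belong to the NF-kB pathway itself, were higher in Oxa. Nfkb2, the p100 precursor, was at 65.59, 48.46 and 56.05 in APAP and 97.55, 103.9 and 92.58 in Oxa (0.75 ± 0.14, adjusted p = 0.00202). The inhibitor gene Nfkbie went from 1.82 ± 0.198 to 4.21 ± 0.651 (1.17 ± 0.21). Tslp, an epithelial cytokine that acts on dendritic cells, was the 1 member lower in Oxa, from 62.65, 67.12 and 65.09 to 44.46, 36.25 and 39.2 (-0.74 ± 0.12, adjusted p = 0.000866). Its groups did not overlap, as for 48.5% of all genes tested.

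Interferon response genes split. Of 23 tested, 9 were higher and 6 lower in Oxa (median 0.22), and 5 were higher without Oxa 3. Higher were Ifit2 (1.44 ± 0.24), which acts on viral RNA, Ifi35 (5.46 ± 1.33 to 13.2 ± 0.959; 1.23 ± 0.15), the RNA sensor Ddx58 (0.83 ± 0.12) and the adaptor Sting1 (0.69 ± 0.14). Lower were Rsad2 (-1.35 ± 0.22), the antiviral viperin, the chemokine Ccl5 (6.09, 6.15 and 6.36 to 2.58, 3.35 and 3.29; -1.05 ± 0.16), the oligoadenylate synthetase-like genes Oasl2 (-0.98) and Oasl1 (-0.72), Ifi203 (-0.69) and another RNA sensor, Ifih1 (-0.64 ± 0.12). The groups did not overlap for any of the genes named here, as for 48.5% of all genes tested. The interferon-stimulated element, searched on both strands as TTTC, any 2 bases and TTTC, was in 7 of the 17 members with a promoter entry, against 2.92% of all, with 0 of 4 among members higher in Oxa and 2 of 5 among those lower.

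Mesenchymal genes were higher in part. Of 19 tested, 8 were higher and 1 lower (median 0.25). Only 5 were higher without any 1 Oxa library, and 0 were lower without APAP 1, APAP 2 or any 1 Oxa library. Beside Vim and Mmp9, the calcium-binding S100a4 went from 6.04, 11.08 and 11.24 to 27.66, 22.64 and 22.88 (1.33 ± 0.29, adjusted p = 0.0054), with PBS at 17.72, 23.12 and 22.93. Tgfb1, the growth factor TGF-beta 1, rose from 2.96 ± 0.14 to 5.5 ± 0.833 (0.86 ± 0.13) and the matrix protein Sparc from 9.75 ± 1.94 to 17.3 ± 0.822 (0.78 ± 0.13). Summed fibroblast markers were 1.07 to 1.30 in APAP and 1.31 to 1.79 in Oxa; their part in these differences was not tested.

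YAP and TEAD targets held some of the larger rises. Of 28 tested, 7 were higher and 2 lower (median 0.08), against 14.2% and 12.7% of all genes, and 1 was lower without APAP 2, Oxa 2 or Oxa 3. Ccn2, the connective tissue growth factor (chr10:24595442-24598683), was at 18.00, 26.74 and 18.42 in APAP and 86.21, 76.32 and 68.31 in Oxa (1.83 ± 0.16, adjusted p = 2.67e-05). The matrix glycoprotein gene Thbs1 was at 25.34, 28.19 and 26.99 in APAP and 92.49, 79.35 and 66.4 in Oxa (1.53 ± 0.19, adjusted p = 0.000213). PBS 1 and PBS 3 lay between the groups for both genes, at 39.48 and 41.68 for Ccn2 and 41.56 and 46.62 for Thbs1. PBS 2 lay above them all, at 165.8 and 128.2. Edn1, which encodes endothelin 1, rose from 3.75 ± 0.835 to 8.45 ± 0.34 (1.13 ± 0.20) and the receptor kinase Axl from 90.3 ± 3.68 to 129.8 ± 8.99 (0.49 ± 0.11).

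Of 11 genes of the plasminogen system 2 were higher and 2 lower, 18.2% each, close to the 14.2% and 12.7% of all genes. Serpinb9, an inhibitor of granzyme B, was higher (1.06 ± 0.18). Serpinb2, which inhibits plasminogen activators, fell from 6.94, 8.36 and 7.04 to 3.70, 3.41 and 2.83 (-1.21 ± 0.24, adjusted p = 0.00305), and both groups lay below PBS at 13.46, 16.47 and 15.03. Serpinf1, which encodes PEDF, fell as well (-1.31 ± 0.19). The list thus has members on both sides, and its median was 0.25.

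Adhesion to the basement membrane and to neighbours changed gene by gene. Of 21 collagens, laminins and integrins, 5 were higher and 1 lower (median -0.06), and 0 were lower when any library but Oxa 1 was left out. Beside Col7a1, the laminin 332 chains Lamb3 (25.0 ± 2.64 to 48.1 ± 4.43; 0.90 ± 0.17) and Lama3 (6.21 ± 0.593 to 11.4 ± 0.346; 0.84 ± 0.09) and the integrin Itgb6 (1.05 ± 0.21) were higher. Of 28 epithelial adhesion and tight junction genes 3 were higher and 6 lower (median -0.05). Esrp1, which directs epithelial splicing, fell from 54.37, 56.13 and 51.96 to 34.38, 36.58 and 37.52 (-0.62 ± 0.09, adjusted p = 0.000451). The transcription factor Grhl2 fell by 0.40 and the claudin Cldn12 by 0.35 on the log2 scale. These members were named for their small p, and values in the list ran from -0.63 to 0.72. The summed epithelial cell markers were not lower in Oxa, at 1118.94 to 1159.02 against 1029.2 to 1056.34 in APAP.

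Desmosome genes moved in both directions, with 4 of 13 higher and 3 lower. The plakophilins Pkp1 (1.25 ± 0.16) and Pkp2 (0.46) and plakoglobin Jup (0.77 ± 0.11) were higher. Corneodesmosin, Cdsn, was lower, at 13.43, 15.52 and 10.62 in APAP and 4.28, 5.79 and 5.47 in Oxa (-1.39 ± 0.15, adjusted p = 8.44e-05). Of 8 keratins 2 were higher and 0 lower, and 1 was higher without APAP 2, APAP 3 or Oxa 1. Krt14, the basal keratin, rose from 2.12, 2.09 and 1.74 to 5.39, 6.55 and 5.43 (1.51 ± 0.19), with PBS at 3.37, 19.87 and 2.12.

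Targets of ATF4 split evenly, with 9 of 33 higher and 9 lower in Oxa (median -0.09); in a fit of all 12 libraries 1 was higher and 8 lower, and in that fit without PBS 2 9 and 9. Atf4 itself was level, at 151.5, 142.3 and 156.5 in APAP and 151.9, 155.6 and 165.6 in Oxa (0.03 ± 0.10, 95% interval -0.17 to 0.24). Promoter stretches of a member from each side, Chac1 (chr2:119350998-119351106, plus strand) and Asns (chr6:7693210-7693282, minus strand), are shown with the composite letters for ATF4 and C/EBP in capitals, from RefSeq (GRCm38).
Chac1: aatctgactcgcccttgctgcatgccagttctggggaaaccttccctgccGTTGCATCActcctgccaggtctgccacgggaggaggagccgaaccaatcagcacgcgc
Asns: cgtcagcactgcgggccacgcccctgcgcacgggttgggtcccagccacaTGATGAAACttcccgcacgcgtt
TGATGNAAT or TGATGNAAC, on either strand, were in 7 of 29 members with a promoter entry and in 84 of 8181 promoters (1.03%). They were in 3 of 9 members higher in Oxa, 2 of 7 lower and 2 of 13 not called, so the letters occur on both sides of the split.

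Chac1, which degrades glutathione, was at 66.86, 45.4 and 54.07 in APAP and 122.0, 134.0 and 127.1 in Oxa (1.17 ± 0.12, adjusted p = 7.03e-05). Ddit4, an inhibitor of mTORC1 signalling, was at 72.02, 46.13 and 60.08 in APAP and 189.2, 154.9 and 161.6 in Oxa (1.47 ± 0.16, adjusted p = 8.79e-05). PBS levels ranged from 33.8 to 155.3 for Chac1 and from 22.54 to 288.5 for Ddit4, with PBS 2 the highest in each. On the other side, Asns, the asparagine synthetase, was at 238.1, 232.9 and 240.9 in APAP and 152.3, 157.0 and 168.8 in Oxa (-0.61 ± 0.10, adjusted p = 0.00078). PBS held Asns at 240.5, 224.6 and 227.8, as in APAP. The proline enzyme gene Pycr1 fell from 7.64 ± 0.74 to 3.91 ± 0.557 (-1.01 ± 0.12), and the factor Atf5 from 117.9 ± 12.4 to 68.2 ± 5.04 (-0.83 ± 0.10). Trib3 was at 0.11 ± 0.08 and was not called.

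Cth, the enzyme that releases cysteine from cystathionine (chr3:157894248-157925077), was at 22.89, 25.08 and 21.95 in APAP and 8.89, 8.61 and 10.13 in Oxa (-1.38 ± 0.15, adjusted p = 8.44e-05). The PBS libraries, at 26.14, 35.0 and 27.28, were above all 6. Of 23 tested genes of transsulfuration, cystine and glutathione, 3 were higher and 5 lower (median 0.05). The methionine synthase gene Mtr (-0.56 ± 0.11), its reductase Mtrr (11.9 ± 0.408 to 7.47 ± 0.733; -0.71 ± 0.08) and the glutathione synthetase Gss (-0.60 ± 0.12) fell with Cth, though Gss overlaps Acss2. The cystine transporter Slc7a11 was at 11.18, 11.86 and 8.25 in APAP and 8.61, 7.48 and 8.28 in Oxa and did not pass (-0.40 ± 0.15, adjusted p = 0.0635).

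Aminoacyl-tRNA synthetases were lower in 6 of 22 cases and higher in 1 (median -0.16). Without APAP 1, Oxa 1 or Oxa 3 only 3 were lower, and 0 were higher without APAP 2, APAP 3, Oxa 1 or Oxa 2. Rars fell from 149.6, 145.3 and 148.0 to 94.25, 100.8 and 105.4 (-0.60 ± 0.10, adjusted p = 0.00153) and Eprs from 50.0 ± 0.655 to 35.6 ± 1.66 (-0.53 ± 0.08). These enzymes charge tRNA with arginine and with glutamate or proline.

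Genes of folding and stress sensing in the endoplasmic reticulum moved in both directions. Hspa5, the chaperone BiP (chr2:34771970-34777547), was at 1346, 1574 and 1148 in APAP and 814.5, 699.8 and 729.0 in Oxa (-0.90 ± 0.14, adjusted p = 0.000604). PBS stood at 1187, 1255 and 1122 and OAP2 at 2267, 1902 and 1771. The degradation factor Sel1l (36.0 ± 1.09 to 19.8 ± 0.965; -0.90 ± 0.12) and the stress sensors Atf6 (-0.64 ± 0.10) and Ern1 (-0.63 ± 0.12) fell too. Of 27 members 5 were lower and 2 higher, Herpud1 (0.43 ± 0.09) and the disulfide isomerase Pdia3 (0.34 ± 0.09); only Herpud1 was higher without APAP 1, APAP 3 or Oxa 1. The list's median of -0.02 had the opposite sign under limma (0.02) and without APAP 2 (0.03), so no direction is given for the list. Among 20 cytosolic heat shock genes 5 were higher and 1 lower, with 3 higher without APAP 2 or APAP 3. Hspb8 fell from 82.11, 78.07 and 90.72 to 53.79, 56.0 and 55.05 (-0.64 ± 0.12), while the heat shock factor Hsf1 rose (0.45 ± 0.09).

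NRF2 targets, which serve the oxidative stress response, were higher in 7 of 28 cases and lower in 4 (median 0.15), and 3 or 4 were higher without APAP 2, APAP 3, Oxa 1 or Oxa 3. The haem oxygenase Hmox1 rose from 16.9, 15.29 and 16.78 to 25.0, 28.69 and 32.03 (0.77 ± 0.10, adjusted p = 0.000209), and Keap1, the NRF2 repressor, by 0.40 ± 0.08. Osgin1 rose as well (0.64 ± 0.11). The reductase Srxn1 fell (-0.32 ± 0.08), as did the efflux pump Abcc4, from 41.89, 43.04 and 38.9 to 22.77, 20.96 and 20.79 (-0.98 ± 0.14, adjusted p = 0.000381).

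Of 14 metallothionein and platinum or copper transport genes 2 were higher and 5 lower, and 3 were lower without APAP 2 or any 1 Oxa library. The metal-binding Mt2 was at 49.26, 49.56 and 46.95 in APAP and 90.2, 82.52 and 110.6 in Oxa (0.92 ± 0.10, adjusted p = 0.000108), and Mt1 rose by a smaller step (0.38 ± 0.08). Both metallothioneins were higher in each Oxa library than in any APAP or PBS library. The efflux pump Abcc1 (-0.51 ± 0.12) and the copper importer Slc31a1 (-0.40 ± 0.10) were lower. Of 21 iron and ferroptosis genes 4 (19.0%) were higher and 2 (9.5%) lower, against 14.2% and 12.7% of all genes. Only 1 was lower when any library but APAP 3 was left out. Aco1, the iron regulatory protein, rose from 10.5 ± 0.755 to 17.5 ± 0.176 (0.70 ± 0.09) and the transferrin receptor Tfrc from 29.6 ± 4.52 to 45.8 ± 4.69 (0.59 ± 0.13).

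Immediate early genes, which respond within minutes to growth signals, split with 9 of 23 higher and 5 lower; 3 were lower without Oxa 2 or Oxa 3. Egr1 (chr18:34859823-34864984) was at 4.62, 6.42 and 5.88 in APAP and 1.47, 1.23 and 1.15 in Oxa (-2.17 ± 0.18, adjusted p = 1.92e-05), with PBS at 4.29, 17.66 and 3.68. The antiproliferative gene Btg2 fell as well (2.39 ± 0.446 to 1.15 ± 0.384; -1.09 ± 0.25). Ier3 rose from 68.03, 76.23 and 78.51 to 176.1, 148.8 and 168.1 (1.11 ± 0.09, adjusted p = 1.93e-05). The mRNA decay factor Zfp36l1 rose from 14.3 ± 0.16 to 31.4 ± 3.17 (1.10 ± 0.09) and the AP-1 subunit Junb by 0.64 ± 0.08. Serum response elements in any of 6 spellings of 10 letters were in 1 of the 18 promoters of this list and in 0.22% of all, so that motif search says little here.

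The dual-specificity phosphatases and Sprouty genes, which restrain ERK signalling, were higher in 4 of 19 cases and lower in 7, and 4 were lower without Oxa 1. Dusp1 fell from 3.82, 4.81 and 5.73 to 2.52, 2.82 and 1.92 (-1.01 ± 0.18, adjusted p = 0.00171) and Dusp6 from 13.2 ± 0.786 to 9.36 ± 0.46 (-0.54 ± 0.09). Phlda1 (0.88 ± 0.10) and Dusp14 (0.57 ± 0.10) were higher. Dusp1 overlaps Ergic1.

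Of 34 p53 targets 7 (20.6%) were higher and 5 (14.7%) lower in Oxa (median 0.09), against 14.2% and 12.7% of all genes. When 1 library was left out, 1 to 3 were lower. Higher were the polo-like kinase Plk2 (42.1 ± 3.19 to 72.4 ± 2.09; 0.74 ± 0.08), the 14-3-3 protein Sfn (0.82 ± 0.13) and, beside Ddit4, Sesn2 (0.65 ± 0.12). The cell cycle inhibitor Cdkn1a was lower, at 4.43, 3.45 and 4.07 in APAP and 3.02, 2.24 and 2.98 in Oxa (-0.58 ± 0.16, adjusted p = 0.0187), with no overlap between the groups. That call was lost without APAP 1, APAP 3 or Oxa 2 (adjusted p up to 0.087). For Plk2 the PBS libraries, at 62.2, 68.6 and 69.46, were nearer to Oxa than to APAP.

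Cell death genes were higher in 9 of 29 cases and lower in 2 (median 0.14). The kinase gene Ripk1 rose from 2.64, 2.55 and 2.79 to 4.14, 4.31 and 4.41 (0.65 ± 0.09, adjusted p = 0.000275) and the BH3 protein Bcl2l11 by 0.52 ± 0.13. The survival genes Cflar, which blocks caspase 8 (3.49 ± 0.117 to 2.23 ± 0.115; -0.69 ± 0.09), and Mcl1 (47.95 ± 0.943 to 36.9 ± 0.917; -0.42 ± 0.07) were the members lower in Oxa. These values are RNA levels, and cell death itself was not measured here.

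Noncoding host genes of small nucleolar RNAs were lower in Oxa. Of 13 tested, 7 were lower and 0 higher, with the lowest median of the 42 lists (-0.43). Leaving out 1 library left 5 to 7 lower. Snhg12 was at 54.67, 61.93 and 59.55 in APAP and 31.4, 30.0 and 36.59 in Oxa (-0.89 ± 0.14, adjusted p = 0.001). Snhg15 was at 27.77, 27.93 and 31.03 in APAP and 17.18, 16.23 and 17.63 in Oxa (-0.80 ± 0.11, adjusted p = 0.000275). Zfas1 was at 118.5, 150.1 and 141.7 in APAP and 73.54, 71.77 and 87.19 in Oxa (-0.86 ± 0.24, adjusted p = 0.0201), a call lost without APAP 2, APAP 3, Oxa 1 or Oxa 2. Each of these host genes was lower in all Oxa libraries, and PBS stood at or above APAP in PBS 1 and PBS 3.

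Splicing factors of the SR family and their kinases were lower in 11 of 32 cases and higher in 1 (median -0.22). The number lower was 8 without Oxa 1 and 5 or 6 without any of the other libraries, and 0 were higher without APAP 2, APAP 3, Oxa 1 or Oxa 2. Luc7l3, a component near the U1 particle, fell from 21.37, 21.19 and 21.97 to 14.7, 11.99 and 14.47 (-0.69 ± 0.09, adjusted p = 0.000275). Srsf1 fell from 96.0 ± 2.48 to 69.3 ± 2.83 (-0.51 ± 0.10) and Rbm39 from 60.5 ± 2.06 to 45.1 ± 3.36 (-0.46 ± 0.08). The abundant RNA-binding protein gene Hnrnpa1, outside that list, fell from 357.3, 344.4 and 331.8 to 238.4, 228.5 and 224.2 (-0.62 ± 0.09, adjusted p = 0.000541).

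Ribosomal genes differed little. Of 81 cytosolic ribosomal protein genes 65 had a negative value, 5 were lower and 0 higher (median -0.12). The number lower was 2 or 3 when 1 library was left out, and 20 in a fit of only the 6 libraries compared. Rpl3 was the clearest, from 232.3, 259.3 and 268.5 to 157.1, 150.7 and 169.6 (-0.71 ± 0.11, adjusted p = 0.00076); small nucleolar RNA genes and Syngr1 overlap it. Of 52 ribosome biogenesis factors 3 were higher and 7 lower. These became 2 and 2 without APAP 1, 1 and 4 without APAP 2, 1 and 5 without APAP 3, 1 and 4 without Oxa 1, and 2 and 4 without Oxa 2. Taf1d, a factor for RNA polymerase I, fell from 36.2 ± 1.09 to 22.7 ± 2.88 (-0.71 ± 0.10) and the helicase Ddx21 by 0.42 on the log2 scale, while the helicase Ddx18 rose (0.49 ± 0.09). Mitochondrial ribosomal proteins were higher in 8 of 78 cases (10.3%) and lower in 4 (5.1%), both below the 14.2% and 12.7% of all genes (median 0.11). Mrpl45 (0.60 ± 0.09) and Mrpl10 (0.51 ± 0.08) were the clearest. When 1 library was left out 2 to 5 were higher, and 2 were lower without APAP 2, APAP 3 or Oxa 1.

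Genes of sterol synthesis were more often higher than lower in Oxa. Of 30 genes of cholesterol synthesis and uptake 9 were higher and 3 lower (median 0.17), 1 and 2 in a fit of all 12 libraries, and 10 and 3 in that fit without PBS 2. Acat2, which joins acetyl-CoA units at the head of the pathway, rose from 3.91, 3.40 and 3.17 to 10.69, 8.79 and 10.35 (1.47 ± 0.13, adjusted p = 2.36e-05). Fdps rose from 3.97 ± 0.181 to 7.29 ± 0.757 (0.83 ± 0.12) and the desaturase gene Scd2 from 56.4 ± 2.94 to 130.4 ± 15.8 (1.17 ± 0.15). In each of these the Oxa libraries lay above the APAP libraries. Sqle, the epoxidase in the middle of the pathway, went the other way, from 18.91, 20.89 and 19.52 to 14.14, 14.8 and 13.74 (-0.51 ± 0.09, adjusted p = 0.0013). Soat2, which stores cholesterol as ester, was lower in Oxa as well (above).

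Prostaglandin genes were few, with 3 of 10 higher and 2 lower; 0 or 1 were lower without APAP 1, APAP 3, Oxa 2 or Oxa 3. Beside Ptgr1, the cyclooxygenase Ptgs2 was at 95.85, 102.7 and 76.21 in APAP and 164.2, 130.4 and 156.4 in Oxa (0.67 ± 0.14, adjusted p = 0.00476), with PBS at 136.4, 527.5 and 151.5. Ptgr2 was higher as well (0.46 ± 0.09). Every APAP library lay below every Oxa and PBS library for Ptgs2.

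Hypoxia and glycolysis genes were higher in 9 of 29 cases and lower in 1 (median 0.20), but 4 or 5 were higher when any library but Oxa 2 was left out. The collagen hydroxylase subunit P4ha2 (0.597 ± 0.153 to 1.24 ± 0.193; 1.01 ± 0.20) and the hexokinase Hk1 (4.37 ± 0.16 to 6.74 ± 0.643; 0.59 ± 0.10) were the clearest. Of 77 nuclear genes for oxidative phosphorylation 60 had a positive value, 5 were higher and 1, Cox6a2, lower (median 0.15). The count higher was 2 or 3 when any library but Oxa 1 was left out. Ndufa9, a subunit of complex I, rose from 18.0 ± 1.37 to 24.2 ± 0.606 (0.38 ± 0.08). Of 13 mRNAs encoded in mitochondria 1 was higher, and 0 were when any 1 library was left out.

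Autophagy and lysosome genes were higher in 8 of 31 cases and lower in 1 (median 0.10). The number higher was 3 without APAP 1 and 5 without APAP 3, Oxa 1 or Oxa 2. Beside Ctsw, the receptor gene Calcoco1 rose from 1.12, 1.03 and 0.87 to 2.47, 2.49 and 2.39 (1.24 ± 0.16, adjusted p = 0.000266) and cathepsin A, Ctsa, by 0.48 ± 0.10. Of 27 polycomb genes 3 (11.1%) were higher and 1 (3.7%) lower, both below the 14.2% and 12.7% of all genes. Cbx2 (4.28 ± 0.206 to 7.06 ± 0.208, 0.68 ± 0.10) and Phc1 (0.70 ± 0.13) were among the higher. For Cbx2, a reader of methylated histone H3, both drug groups lay above PBS at 2.79, 1.86 and 2.25. The 1 polycomb member lower was Phc3, described above, and 0 were lower without APAP 2 or any 1 Oxa library.

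The MYC network had 4 of 8 genes higher and 2 lower. Myc itself was abundant and rose from 257.5, 243.4 and 264.2 to 355.2, 368.1 and 344.9 (0.44 ± 0.09, adjusted p = 0.00367). Other members went both ways: the repressor Mnt from 17.38, 11.33 and 12.61 to 22.99, 24.76 and 20.71 (0.69 ± 0.14), the partner protein Mlx by 0.55 ± 0.11 and, lower in Oxa, Mga from 8.75 ± 0.161 to 6.68 ± 0.584 (-0.43 ± 0.08). In PBS, Mnt was at 10.2, 7.86 and 8.33, below both groups. Of 13 genes of the 7SK RNA and of P-TEFb, the kinase that releases paused polymerase, 2 were higher and 2 lower. These shares, 15.4% each, were close to the 14.2% and 12.7% of all genes. Each count was 0, 1 or 2 when 1 library was left out.

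**Figure D4:**
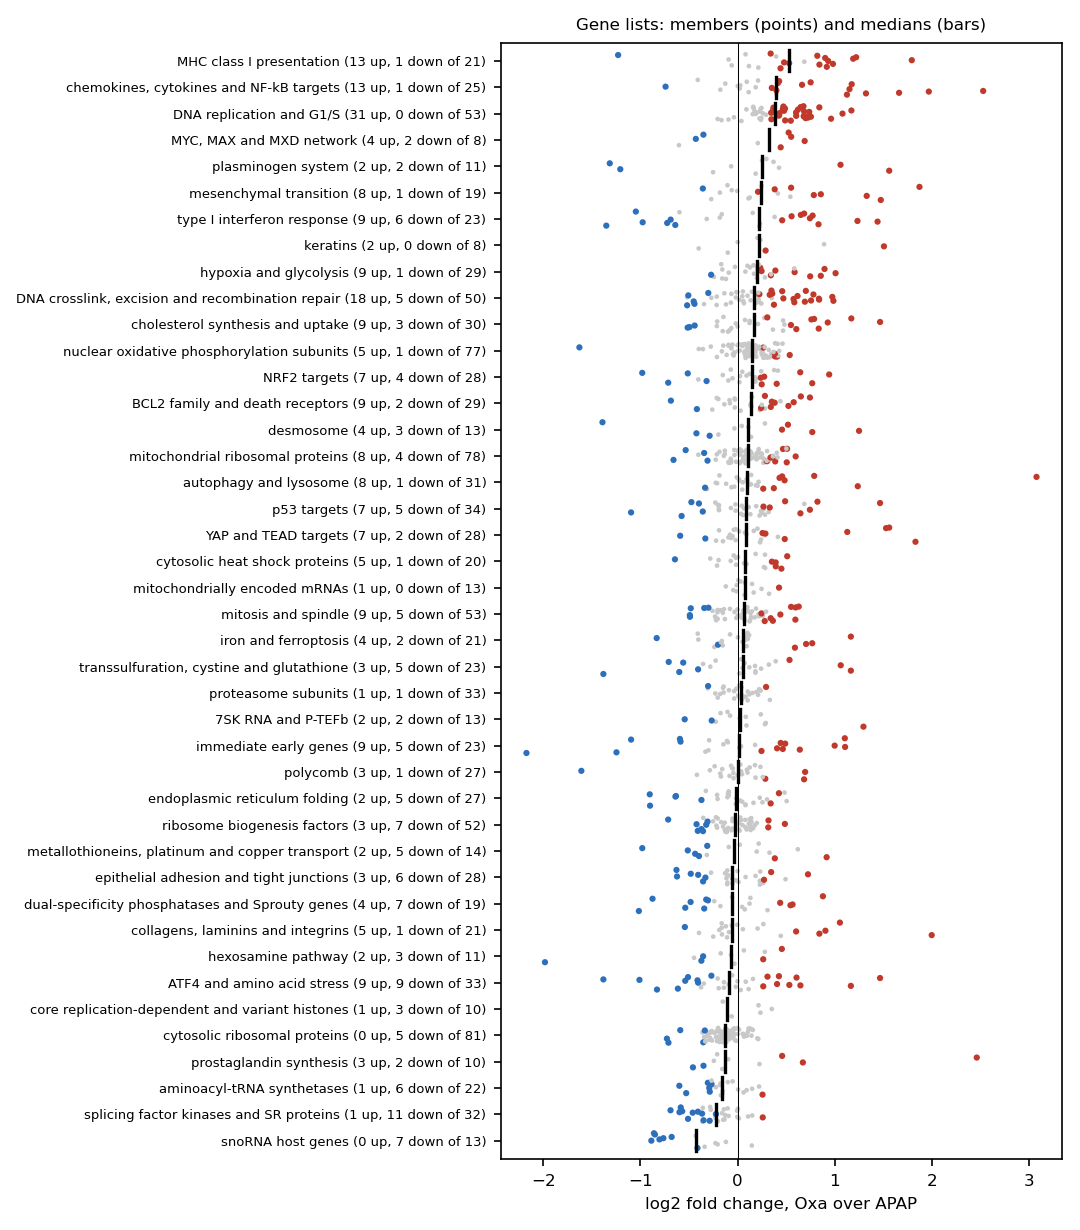
Log2 fold change of Oxa over APAP for the tested members of 42 gene lists, ordered by median; grey points did not pass the test, red points were called higher and blue points lower in Oxa, and the bar marks the list median. Lists at the top, MHC class I presentation, chemokines and DNA replication, have medians of 0.53, 0.40 and 0.38, and the snoRNA host genes at the bottom one of -0.43; most lists hold points of both colours.

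Calls also varied with the span of a gene from start to end. When the genes tested were divided into 5 equal bins by span, 8.25% of the shortest genes (up to 4.46 kb) were higher in Oxa and 7.35% lower. In the middle bins 16.6% to 16.8% were higher and 11.7% to 14.1% lower. Among the longest (from 55.7 kb) the order was turned, with 12.7% higher and 18.6% lower. The median log2 fold change was -0.041, 0.044, 0.028, -0.016 and -0.033 from the shortest bin to the longest, so it fell from the second bin on. Bins by relative transcript length, taken from the counts and FPKM, showed a like change. There 17.7% were higher and 9.94% lower in the second bin (median 0.052), and 11.2% and 20.3% in the longest (median -0.069). Which of the 2 measures the calls follow was not tested. A removal of the trend with transcript length, a measure other than span, called 3419 genes in place of 3114, with 2914 shared.

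**Figure D5:**
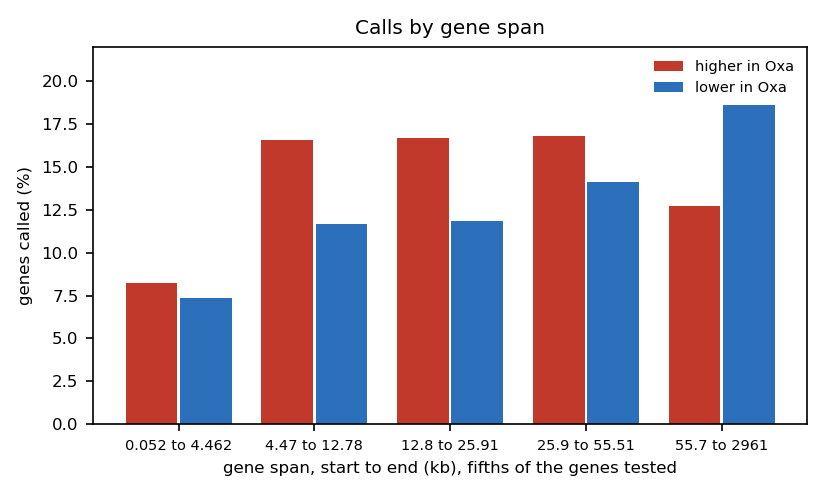
Percent of genes called higher (red) or lower (blue) in Oxa, in 5 equal bins of the genes tested by span in kb. Bars for genes higher in Oxa are taller in the first 4 bins, and in the bin of the longest genes the bar for genes lower in Oxa is taller, at 18.6% against 12.7%.

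The OAP2 libraries lay nearer to APAP than to Oxa for most of the genes that differ. Their mean was on the APAP side for 2133 of the 3114 called genes (68.5%) and for 264 of the 328 over 2-fold (80.5%). Among genes lower in Oxa, 45.28% were nearer to Oxa in OAP2 3, against 26.65% in OAP2 1 and 28.08% in OAP2 2. Among genes higher in Oxa these shares were 31.77%, 37.25% and 36.46%. Of all called genes 16.18% were nearer to Oxa in PBS 1, 13.17% in PBS 3 and 59.18% in PBS 2. The lean to APAP was thus also seen in PBS 1 and PBS 3. For Vim, OAP2 was at 60.41, 61.41 and 53.06, between APAP and Oxa. For Fam171b, at 9.26, 8.87 and 9.07, and for Fubp1, at 23, 21.42 and 20.32, it was at the level of APAP. The OAP2 libraries also serve in the estimate of the spread, and these positions are given without a test.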

How the data were processed

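Poly(A) RNA of 4T1 cells was sequenced in 12 strand-marked libraries, per the labels' protocols, 3 each of PBS, APAP, Oxa and OAP2. Per the submitters' processing notes the tools were DESeq2, edgeR, StringTie 2.1.6, HISAT2 2.2.1 and cutadapt 1.9, with the build mm9 and no roles stated. GENCODE M21 (GRCm38) holds 29864 of the identifiers, 91.1% of them at identical positions, so coordinates are given in GRCm38. The deposited counts are whole-number estimated counts, not scaled between libraries, per the file headers and their values. The deposited FPKM values, by their name, are the authors' scaling for length and depth. Whether counting used the strand is not stated, so overlapping genes and near-identical copies are less certain. The PBS levels come from columns named CON, matched to that group, and by number to its replicates, by inference.

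Tested were 11566 of 29937 genes, those reaching FPKM 1 in 3 or more of the 6 Oxa and APAP libraries. After TMM scaling the counts went into edgeR 4.0.16 (under R 4.3.3; glmQLFit, glmQLFTest, 2-sided) with 1 mean per group over the 9 drug-treated libraries, the contrast being Oxa minus APAP. The common biological coefficient of variation was 14.1%. SE, an approximation, is the log2 fold change over the root of F, and intervals follow from it. On simulated counts for 9 libraries the fit found 39 of 67 genes set to a 1.5-fold change and 58 of 67 set to 2-fold. It found 64 of 66 set to 4-fold and called 8 of 11366 unchanged genes. Far fewer genes differed in that simulation than the 26.9% called here, so these shares need not hold for the data. At depths of 64071751 to 66781224 counts, low FPKM values rest on few reads.

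The comparison, the 42 pathway lists, the 12 cell type lists and the rule for naming were chosen with earlier results of these data known. The rule takes, among called genes with groups that do not overlap and a higher group averaging FPKM 2 or more, the 14 largest changes, 8 smallest p and 6 highest levels in each direction. It leaves out predicted genes, pseudogenes and shared names, and adds up to 4 members with the smallest p from each list. It gave 188 genes. Members named beyond it, such as Cdc6, Nfkb2, Rsad2, Cdkn1a and Sqle, were chosen for their known roles after their values were seen. Some genes that met the rule or belong to a list are not reported here by name. Promoters are RefSeq entries (GRCm38.p6), found for 8181 of 11550 tested genes with a name used once. Alternatives were other scalings, filters, tools (DESeq2 1.42.0, limma 3.58.1), sets of libraries and leaving out each library.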

Additional observations from a re-analysis of the deposited data

How the results depend on the processing

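Depth limits genes near FPKM 1, where 1 group often rests on few reads, and 3 libraries a group limit small changes. Of the 188 named genes, 140 were called under every one of 22 alternatives, 48 lost their call in at least 1 and none reversed. In 1 gene, whose edgeR adjusted p rounds to 0.05, the call was lost without some single libraries and with all 12. Of the 187 others, 25 lost their call without 1 Oxa or APAP library and 32 with all 12 libraries. The fit of all 12 libraries, which adds PBS, called 1883 genes, 976 higher and 907 lower in Oxa; without PBS 2 it called 3310, 1717 higher and 1593 lower. Voom with quality weights called 2255 lower. Leaving out 1 Oxa or APAP library gave 2153 to 2373 called, 1149 to 1309 higher and 960 to 1064 lower. The cause of the change under voom was not tested, and leaving out a library leaves fewer samples. limma on log2(FPKM + 1) called 1842 higher and 1114 lower, a split further to one side than the 1643 and 1471 of edgeR, and on log2(FPKM + 0.1) 1817 and 1104. With just the Oxa and APAP libraries edgeR called 4396. DESeq2 on the 9 libraries called 3702. Without OAP2 3, an alternative chosen after seeing the data, 4452 were called, 2286 higher and 2166 lower. Same-numbered libraries did not deviate together (correlations -0.113 to 0.157 over 9 pairs), so the numbers are not read as pairs. With the replicate block 3222 genes were called, 2972 of them shared. Of 924 list medians under the alternatives 62, in 21 lists, moved by more than 1 SD of the list between replicates.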

Other observations

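The control library PBS 2, which holds red blood cell and neutrophil transcripts, lay nearer in level to the Oxa mean than to the APAP mean for 1843 of the 3114 genes called between Oxa and APAP (59.18%). This was so for 504 of them (16.18%) in PBS 1 and 410 (13.17%) in PBS 3. Among the 328 genes over 2-fold the numbers were 209 (63.72%) in PBS 2 and 50 (15.24%) in each of PBS 1 and PBS 3. The 7 red blood cell markers summed to FPKM 231.9 in PBS 2 and to 0.09 to 0.28 over the Oxa and APAP libraries, and the 9 neutrophil markers to 67.1 and to 0 to 0.38. Examples, chosen after their values were seen, are Lig1 (19.97 in PBS 2, 9.96 and 9.68 in PBS 1 and PBS 3, 21.3 ± 0.288 in Oxa), Fbxw4 (7.31 against 15.78 and 16.13, with 8.19 ± 0.0757 in Oxa) and Ascc2 (25.62 against 46.12 and 44.59, with 27.1 ± 0.318 in Oxa). These are values without a test, and no PBS library entered the fit of 9 libraries.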
